A study of Mus musculus with 8 samples.

Results

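Prdm4 is a member of the PRDM family, proteins that join a PR/SET domain, related to the catalytic domain of histone methyltransferases, with a row of zinc fingers that bind DNA. The promoter-proximal sites described here are the places close to a gene start at which a tagged Prdm4 was found in each of the 4 anti-GFP samples of the study. They are of interest because a promoter, the DNA around a transcription start site (TSS), is where RNA polymerase II assembles, and factors bound there are usually assigned to that gene, although a peak near a gene does not show that the gene is regulated. The study derived, from the peaks of these same samples, a tripartite DNA motif made of GGG, CT and GAAAC, with a spacer of 1 to 4 bases between GGG and CT and 1 free base before GAAAC. It also recovered the GAAAC part in vitro, by selecting DNA sequences with the recombinant zinc finger domain. In its binding assays with mutated Bahcc1 probes, GAAAC appeared essential, whereas CT and GGGG changed the strength of binding.

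Sites were chosen by presence and distance. Peaks of any score on chromosomes 1 to 19 and X were merged where they overlapped by at least 1 bp, merged intervals with a peak of all 4 samples were kept, and of these 900 shared sites the 271 whose centre lay 5 kb or less from the nearest TSS of a protein-coding transcript are the promoter-proximal sites (30.1%, 95% exact binomial interval 27.1% to 33.2%). Intervals on shares of sites cover counting error only. The others lay 5 to 50 kb from a TSS (394 sites) or over 50 kb away (235 sites). Presence in all 4 samples and distance are therefore given, not found. The sites had a median width of 366 bp (233 to 764 bp).

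The peaks come from CCE embryonic stem cells (ESCs), a mouse line of 129/Sv background, that carry a stable Prdm4-EGFP transgene made of full-length Prdm4 and driven by the chicken beta-actin promoter of the pCAGGS vector. Chromatin of clones B1 and B6 was precipitated with an anti-GFP antibody in 2 experiments each, numbered here as replicates 1 and 2 (B1) and 3 and 4 (B6), and every one had a mouse IgG control. Each clone is a single line, the protein measured is the tagged transgene product, and the labels name no change to the cells' own Prdm4 gene. Peak lists hold no expression values, so the cell type could not be checked against its markers.

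Replicates 1, 2, 3 and 4 held 1470, 1806, 1446 and 1266 peaks, of which 271, 272, 272 and 272 lay in the promoter-proximal sites. Every peak has a score from the authors' peak caller, whose scale, and any normalization between samples, the sources do not name. Read counts are not in the lists, so depth is unknown and no counting interval can be set around a score. The median score at the promoter-proximal sites was 27.2, 29.8, 24.6 and 20.7 in replicates 1 to 4, and single scores ran from 2.52 to 428.8. All 4 scores were 10 or more, the minimum that the study applied, at 190 of the 271 sites (70.1%). Scores of a pair of samples correlated across the sites with a median Spearman's rho of 0.81 (0.79 to 0.85 over the 6 pairs), a description over sites of the same libraries.

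The sequences at the strongest sites show the motif directly. Each line gives the best match with 7 bases on either side, 5′ to 3′ on the strand of the match, with mm9 coordinates counted from 1. Capitals mark the GGG, CT and GAAAC parts as they stand in the genome, mismatches included. The first set was picked, from the 22 highest sites, for genes the text describes whose site resembled no other shared site:
Fzd1, chr5:4758031-4758058, minus strand: gactgggGGGcgcCTaGAAACccgttgg
Bahcc1, chr11:120092883-120092911, plus strand: cggccttGGGcagcCTtGAAACcgcggag
Fzd2, chr11:102465672-102465700, plus strand: ccagtggGGGccccCTtGAAACcgactaa
Flywch1, chr17:23908567-23908595, plus strand: cctgcttGGGaagcCTaGAAACtactagc
Ctdsp1 start, chr1:74438208-74438236, plus strand: ttttaagGGGaagcCTtGAAACggcgccc
Ctdsp2 start, chr10:126415695-126415722, minus strand: ctggcggGGGagaCTtGAAACcgctccg
Tnrc18 start, chr5:143579624-143579652, minus strand: tgggggaGGGctgcCTaGAAACggctcgg

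The next set shows sites that belong to the largest family of similar sequences, in which the match and its flanks recur from site to site:
Mog, chr17:37163601-37163629, minus strand: gttgttgGGGaagtCTgGAAACtgttgtt
Trim11, chr11:58787984-58788012, plus strand: gttgctgGGGaagcCTgGAAACtgttact
Prss38, chr11:59193117-59193145, plus strand: gtttctgGGGaggtCTgGAAACtgttgct
Ccnb1, chr13:101559187-101559215, plus strand: ttgttggGGGaagtCTgGAAACtgttgcc

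The last set shows genes of stem cell identity, differentiation or division that the text returns to, down to one of the weakest sites (Hoxc12):
Dppa3, chr6:122574590-122574617, plus strand: tatctatGGGctaCTtGAAACtggccag
Klf5, chr14:99702467-99702494, plus strand: gtcaggaGGGcacCTtGAAACttcttag
Nodal, chr10:60883130-60883157, plus strand: aggcaagGAGaccCTtGAAACagccaac
Cdk1, chr10:68815661-68815687, minus strand: taccgcgGCGagTTtGAAACtgctggc
Hoxc12, chr15:102764522-102764548, plus strand: ctcagagGGGtcCTaGAAACccttaaa

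The 20 highest sites lie near genes of mixed function, described here from the top and by related genes. The first site lies in Fzd1 (ENSMUSG00000044674.4), which encodes a Frizzled receptor of Wnt ligands, at chr5:4757715-4758387. Its centre is 165 bp downstream of the TSS in the 5′ untranslated region and it holds the TSS. It scored 313, 306, 391 and 429 in replicates 1 to 4, a mean of 359.9 ± 60.0 (SD, n = 4). Both samples of clone B6 were above both samples of clone B1. A second Frizzled gene, Fzd2 (ENSMUSG00000050288.5), had the sixth highest site, at chr11:102465403-102465934, which also holds its TSS. The centre lies 76.5 bp upstream, and the scores were 201, 237, 288 and 279.6. No other of the 51 annotated genes of the Wnt list, which holds the Wnt ligands, the other Frizzled receptors and the main signalling components, had a promoter-proximal site.

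Second came the intergenic site upstream of Bahcc1 (ENSMUSG00000039741.9), a protein with a BAH domain, a module of many chromatin proteins. It lies at chr11:120092627-120093196, 1.35 kb before the TSS, and held 2 exact motifs. The scores were 298, 293, 365 and 387, again with clone B6 above clone B1. Tnrc18 (ENSMUSG00000039477.9), a paralog of Bahcc1 that also has a BAH domain, had a pair of sites of its own. The stronger, 1.85 kb upstream, scored 148, 198, 269.7 and 199, and the other, 292 bp upstream, scored 119, 141, 184 and 141, so both were lowest in replicate 1 and highest in replicate 3. Each of them held 2 exact motifs.

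Ctdsp1 and Ctdsp2, phosphatases of the C-terminal domain of RNA polymerase II that are also known for keeping neuronal genes silent in non-neuronal cells, both had a site over the TSS and another close by. At Ctdsp1 (ENSMUSG00000026176.7) the site centred 75.5 bp downstream of the TSS scored 121, 136, 115 and 164, and a stronger one 4.56 kb upstream scored 169.9, 240.2, 256 and 229. At Ctdsp2 (ENSMUSG00000078429.2) the site 39.5 bp downstream of the TSS scored 132, 165, 142 and 138. A weaker one in intron 1, 1.48 kb downstream, scored 31.3, 27.5, 47.8 and 39.6. At both genes the ranges of the 2 sites over the 4 samples did not overlap.

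**Figure D1:**
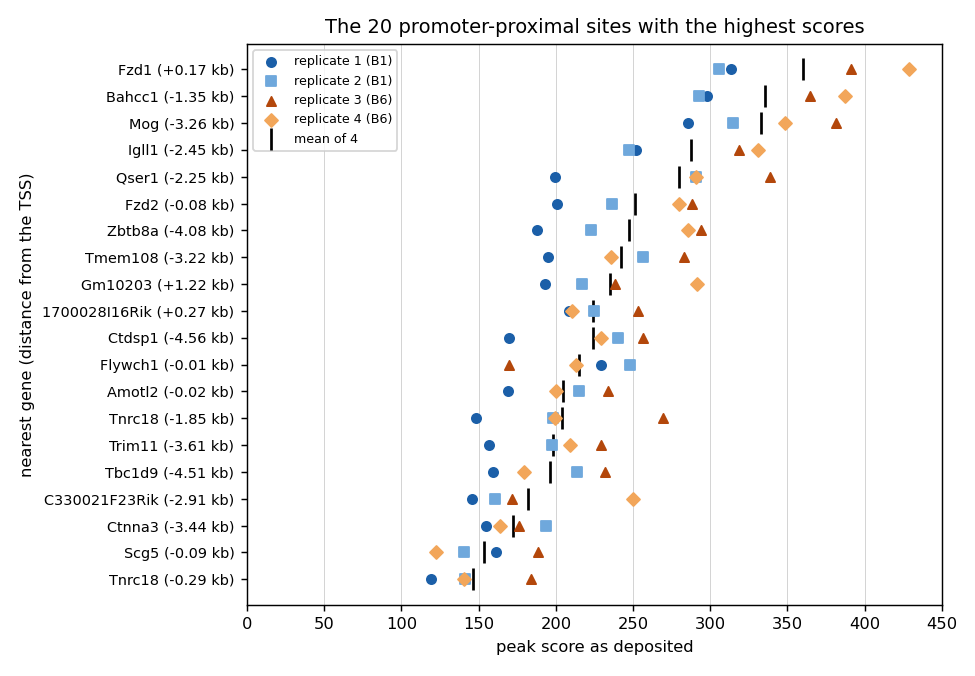
The 20 promoter-proximal sites with the highest mean log10 score, by nearest gene and distance of the site centre from the TSS (negative is upstream); the horizontal axis is the peak score as deposited, points are the 4 samples and the vertical bar is their mean. The mean falls from 359.9 at Fzd1 to 146 at the second Tnrc18 site, and both B6 samples lie above both B1 samples at 10 of the 20 sites, against 14.4% of the 271 sites and 12.8% of all 900 shared sites, a call that depends on the scale of the scores.

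Among the 20 highest sites, 19 held an exact motif, 17 were upstream of the TSS and 12 of these were more than 1 kb upstream. The site without an exact motif was at Amotl2, an angiomotin-like scaffold of cell junctions, with 1 mismatch and a score of 205 ± 27.2 (SD, n = 4). Flywch1, which encodes a FLYWCH zinc finger protein, was the only one of the 20 at which both B1 samples (229 and 248) were above both B6 samples (169.6 and 213). That order held at 32.1% of the 271 sites and 30.3% of all 900 shared sites, a call that depends on the scale of the scores. Others of the 20 lie near genes known from other tissues. The third, 3.26 kb upstream of the myelin glycoprotein gene Mog, scored 286, 315, 381 and 349. The fourth lies 2.45 kb upstream of Igll1 and within 5 kb of Vpreb1, whose products form the surrogate light chain of B cell precursors, and of the topoisomerase gene Top3b. It scored 252, 248, 319 and 331. Scg5, which encodes a chaperone of a prohormone convertase, had a site over its TSS with 161, 140.4, 188.5 and 123. The ranges of neighbouring sites in this order overlapped over the samples, so the order within the 20 is not firm.

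At the low end, Rnd3, a small GTPase, had the lowest mean log10 score, with scores of 5.47, 5.27, 5.66 and 7.84 in replicates 1 to 4. Next lowest was Hoxc12, a posterior Hox gene, with 9.49, 5.14, 4.70 and 6.12, followed by the planar polarity gene Prickle1, Ccnl2, a cyclin linked to splicing, and 4921524J17Rik. Hoxc12 and Prickle1 each held an exact motif, so a complete match did not always go with a high score. At the distance limit, the last sites inside were at Pde1b (4953 bp), C77080 (4879 bp) and Tmem192 (4816 bp), with mean scores of 101, 12.6 and 17.9. The first outside were at Olfr510 (5025 bp), Adrb3 (5091 bp) and Nupl1 (5124 bp), with 14.0, 138 and 18.998.

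Counted at any score, sites were dense close to the TSS and even between its sides. Within 500 bp lay 90 of the 271 sites and within 1 kb lay 138 (50.9%). The density was 94 sites per kb in the 500 bp before the TSS and 86 in the 500 bp after it, against 16.3 and 15.3 sites per kb from 2 to 5 kb before and after. These values are counts over the width of a distance bin. How much sequence lies at each distance from its nearest TSS was not counted, so no expected density stands beside them. Upstream of the nearest TSS lay 140 sites and downstream 131 (51.7% upstream, 95% exact interval 45.5% to 57.7%). With a minimum score of 50 in every sample, 71.2% of the sites left were upstream. The TSS itself was inside 52 of the 271 sites. By protein-coding transcripts, the centre lay in an intron at 121 sites (85 of them in intron 1), between genes at 114, in a 5′ untranslated region at 23, in a coding exon at 9 and in a 3′ untranslated region at 4. A single gene had a TSS within 5 kb at 241 sites, 2 genes at 27 and 3 genes at 3, and 26 of these 30 sites had genes on both strands.

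Nearest to the TSS the sites were rich in G+C. Median G+C was 52.6% at the promoter-proximal sites, 49.3% at 5 to 50 kb and 47.6% farther away, and the ratio of observed to expected CpG dinucleotides was 0.35, 0.17 and 0.13. For windows of 366 bp centred on every annotated TSS the medians were 58.2% and 0.59. Sites in the 500 bp after the TSS (59.5% and 0.65) and in the 500 bp before it (57.8% and 0.63) were close to these windows, and sites from 2 to 5 kb upstream (48.5% and 0.18) were close to distal sites.

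Most of the sites held a form of the tripartite motif. The choice of sites did not use the motif, but the study found it in these peaks, so its share here is a description and not independent evidence. On both strands, with GAAAC complete, 103 sites held an exact match (38.0%, 95% exact interval 32.2% to 44.1%), 90 had a best match with 1 mismatch in GGG or CT, 40 with 2 and 21 with 3, and 17 had no such match. With up to 2 mismatches, 233 sites (86.0%, interval 81.3% to 89.9%) held a match. In 689314 windows of 366 bp tiled over all sequence within 5 kb of a TSS, 0.31% held an exact match and 13.4% a match with up to 2 mismatches. In 45946 windows of that width centred on a TSS it was 0.409% and 13.5%. Cut to the same width around their centre, 104 of the 271 sites (38.4%) had an exact match and 233 (86.0%) one with up to 2 mismatches. Best matches were central, with a median offset of 16.5 bp, and 196 of 233 were within 50 bp of the site's middle.

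Most exact copies of the motif near genes lay outside a promoter-proximal site. Copies under peaks found in fewer than 4 samples count as outside, so the copies outside cannot be read as unbound. Within 5 kb of a TSS the genome held 2260 exact matches, of which 123 (5.44%, interval 4.54% to 6.46%) were inside a promoter-proximal site. Where the best match had 1 mismatch, it fell in GGG at 41 sites and in CT at 49, and the commonest was T in place of C in CT (23 sites). GAAAC was absent from 11 sites. They were near Eps15l1, an endocytosis gene, with the highest mean score of these (52.8 ± 9.54), Pcdh9, 2610002J02Rik, Atp1b1, a sodium pump subunit, Bahd1, another BAH-domain gene (30.7 ± 7.26), Gm13242, Cldn4, Nxt2, Inpp1, Islr2 and Nxph3, the lowest (8.12 ± 1.85; SD, n = 4 for each).

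Sites with an exact motif had the higher scores in every sample. Their median was 52.4, 50.3, 40.8 and 38.7 in replicates 1 to 4, against 22.0, 26.4, 19.4 and 16.5 at the other 168 sites. The ratio was 2.38, 1.91, 2.11 and 2.35, a mean of 1.12 ± 0.15 on the log2 scale (SD, n = 4; two-sided exact sign-flip permutation p = 0.125, the smallest that 4 samples allow). Such p-values measure only the spread between these 4 samples of 2 clones. The study derived the motif from peaks of these same samples with scores of 10 or more. The higher scores at exact matches are therefore a description and not independent evidence, and the part of site width in them was not tested. Sites with 1 mismatch scored above sites with 2 by 0.35 ± 0.06 log2 units (exact sign-flip permutation p = 0.125), whereas sites with 2 mismatches scored below those with 3 mismatches or no match in all 4 samples (-0.17 ± 0.21, exact sign-flip permutation p = 0.125). The 19 sites with 2 or more exact matches had a median score of 145, 160, 172 and 152 and the 84 with a single one 35.6, 32.7, 32.5 and 29.0. That comparison was made after the values were seen and was not tested. Outside families of similar sequences the medians were 145, 163, 178 and 175 over 10 sites, among them Bahcc1, Qser1 and Fzd2, and 30.2, 31.0, 28.9 and 24.9 over 67 sites. Sites with 2 or more exact matches were also wider, with a median of 534 bp against 392.5 bp, and the part of width in the difference was not tested.

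**Figure D2:**
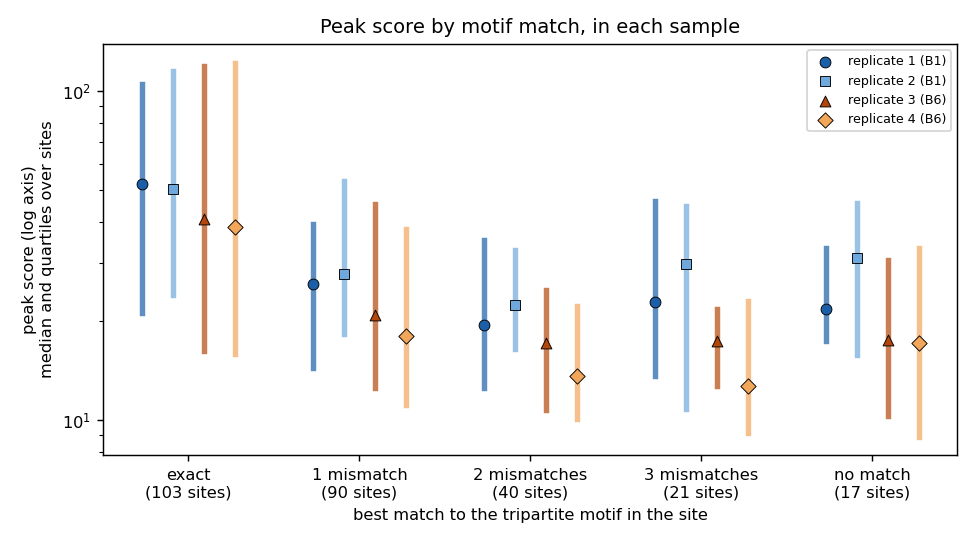
Peak score on a log axis by the best match to the tripartite motif in a site, for each of the 4 samples; points are medians over sites and bars span the quartiles. Exact matches (103 sites) had medians of 38.7 to 52.4, and the other 4 classes lay between 12.7 and 31.2.

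Beyond 1 kb from the TSS, upstream sites scored higher than downstream ones in all 4 samples. From 1 to 5 kb, the 71 upstream sites had median scores of 48.6, 48.8, 48.7 and 34.8 in replicates 1 to 4 and the 62 downstream sites 22.2, 26.8, 21.7 and 18.8. The mean log2 ratio was 1.01 ± 0.16 (SD, n = 4; two-sided exact sign-flip permutation p = 0.125, the smallest possible). Within 1 kb, 69 sites on either side differed by -0.20 ± 0.08, with the downstream sites higher in all 4 samples (p = 0.125, same exact test). Among the sites with an exact motif within 1 kb (18 upstream, 21 downstream) the upstream ones were higher in all 4 samples instead, by 0.47 ± 0.28 (p = 0.125, same exact test). Over all 271 sites the ratio was 0.29 ± 0.17 (p = 0.125, same exact test), and 0.62 with a minimum score of 10 in every sample. Outside families of similar sequences it was 0.14 ± 0.13 (p = 0.25, same exact test), with replicate 4 at -0.02. The split at 1 kb was chosen after the values were seen.

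The sites at 1 to 5 kb were also split by exact motif, a choice made after the values were seen. An exact motif was present at 39 of the 71 upstream sites and 25 of the 62 downstream ones, shares that were not tested against each other. Among these sites with an exact motif, upstream exceeded downstream by 1.71 ± 0.17 log2 units, whereas among the 32 and 37 sites without one the difference was 0.08 ± 0.24 (two-sided exact sign-flip permutation p = 0.125 and p = 0.625). A family of similar sequences, described further on, had 31 of its 51 promoter-proximal sites more than 1 kb upstream, among them those of Mog, Zbtb8a, Tmem108 and Trim11. Outside families, 19 sites remained on each side with an exact motif at 1 to 5 kb, and the difference was 1.302 ± 0.36 (exact sign-flip permutation p = 0.125), with values from replicates 1 to 4 all above 0. Without an exact motif it was 0.21 ± 0.44 there (21 and 27 sites, exact sign-flip permutation p = 0.625).

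**Figure D3:**
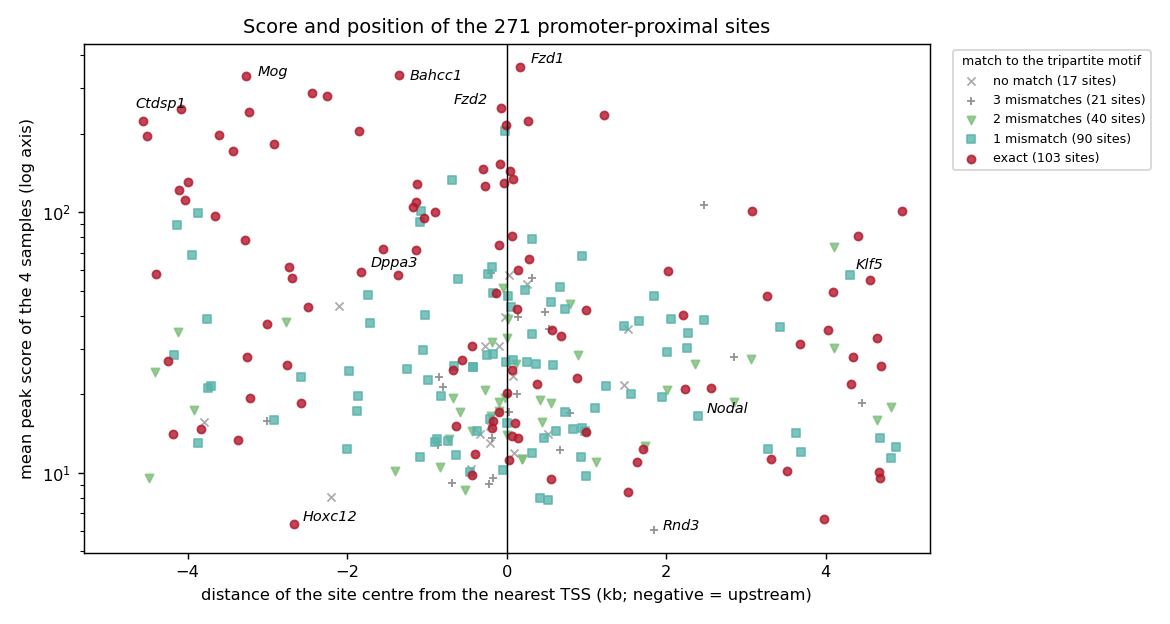
Mean peak score of the 4 samples (log axis) against the distance of the site centre from the nearest TSS in kb (negative is upstream), for the 271 sites, with markers by motif match and 10 sites named by gene. Of 35 sites with a mean score over 100, 31 hold an exact motif, 27 lie upstream and 4 lie more than 1 kb downstream.

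**Figure D4:**
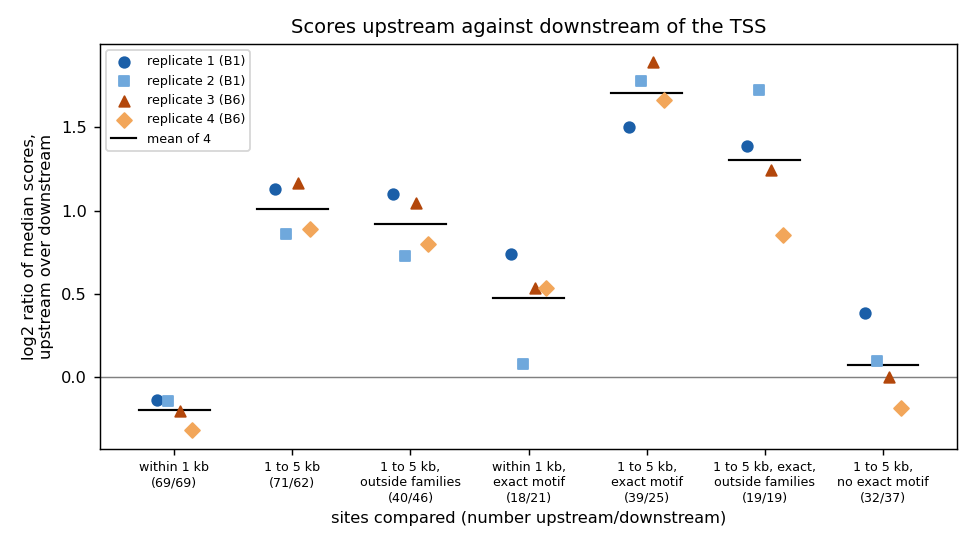
The log2 ratio of the median score upstream over downstream of the TSS in each of the 4 samples (points) and its mean (line), for subsets of sites by distance, exact motif and family; numbers in brackets are sites upstream and downstream. Within 1 kb all 4 values are below 0, from 1 to 5 kb all 4 are above 0.8, and at 1 to 5 kb without an exact motif the samples fall on both sides of 0.

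Similar sequences were less frequent near genes. Aligned to each other, 378 of the 900 shared sites fell into a single family in which sites share at least 100 bp at 70% identity or more, directly or through other sites. It held 51 of the 271 promoter-proximal sites (18.8%, 95% exact interval 14.3% to 24.0%), 179 of 394 at 5 to 50 kb (45.4%, 40.4% to 50.5%) and 148 of 235 farther away (63.0%, 56.5% to 69.2%). A further 4 promoter-proximal sites were in small families, which leaves 216 outside families. Of the 51 sites, 45 lay more than 1 kb from the TSS, 34 lay upstream and none held a TSS (0 of 51, which allows a share of up to 5.88% at 3 counts, or 6.98% by the exact interval). Sites of the family near named genes include those of Ccnb1, Hat1, a histone acetyltransferase, Snx4, a sorting nexin, and the chemokine genes Ccl9 and Ccl24. No repeat annotation was used, so the family is not assigned to a named repeat. The study reported that a part of its peaks lie in ERV1:RLTR23 repeats, and whether the family falls in these was not tested.

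Motif forms differed with the family. Exact motifs were at 38.0% of promoter-proximal sites, 47.7% of sites at 5 to 50 kb and 48.9% farther away, but outside families the share was 35.6% (77 of 216) within 5 kb and 36.7% (106 of 289) beyond it. Of the 26 exact matches of the family near genes, 20 had G as the free base before GAAAC and 25 had T after it. Outside families G stood there at 14 of 77, A at 27 and T at 35, and the base after GAAAC was T at 31 and C at 23. Spacers of 4 and 1 bases made up 16 and 5 of the 26 matches in the family, and spacers of 3 and 4 bases 28 and 27 of the 77 outside. In all, the 103 exact matches had 78 different sequences. The match of Mog and Ccnb1, printed above, was present at 5 promoter-proximal and 45 shared sites, all 5 in the family, and that of Prss38 at 4 and 49.

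The median score at promoter-proximal sites relative to the other 629 shared sites was -0.06 ± 0.05 on the log2 scale (SD, n = 4; two-sided exact sign-flip permutation p = 0.125). The sign of this small ratio was not stable. It turned outside families, at 0.10 ± 0.04 (216 against 289 sites, exact sign-flip permutation p = 0.125), at a minimum score of 50 (0.13) and without replicate 4 (0.00784), and for the sites within 1 kb of a TSS the ratio was -0.31. Of the 52 sites that hold a TSS, 21 held an exact motif, against 82 of the other 219. The orientation of the motif followed the gene at 113 of 233 sites. Upstream the motif lay on the strand of the gene at 49 of 121 sites (40.5%, 95% exact interval 31.7% to 49.8%) and downstream at 64 of 112 (57.1%, 47.4% to 66.5%). For exact matches it was 31 of 57 (54.4%) upstream and 26 of 46 (56.5%) downstream.

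**Figure D5:**
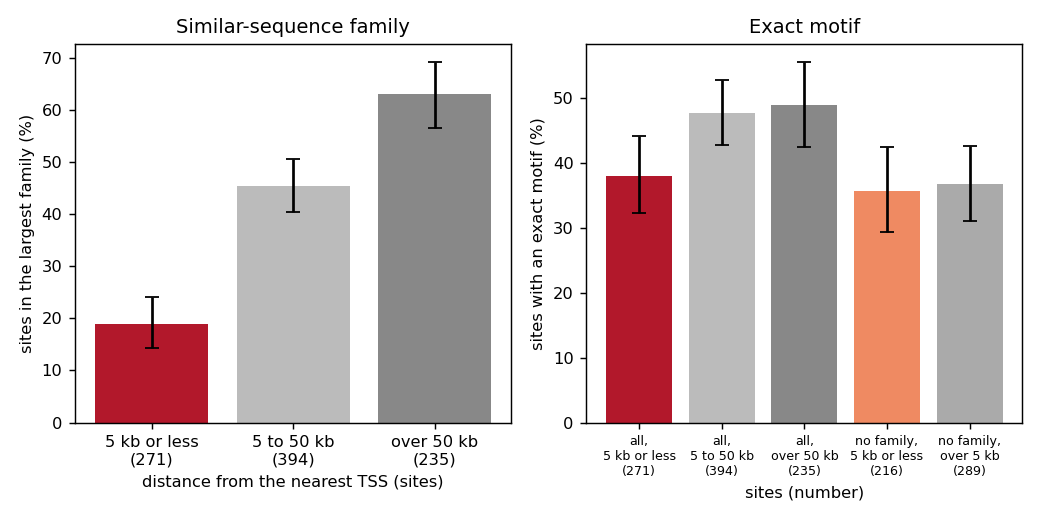
Left, the share of shared sites in the largest family of similar sequences by distance from the nearest TSS; right, the share with an exact motif for all sites and outside families. Bars are percentages of sites, numbers in brackets are sites and error bars are 95% exact binomial intervals, which cover counting error only. The family share is 18.8%, 45.4% and 63.0%, while the exact-motif shares outside families are 35.6% and 36.7%.

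The genes near these sites span many functions. A promoter-proximal site lay within 5 kb of 293 of 22208 protein-coding gene symbols (1.32%). The gene lists read here were chosen with earlier results of these data known, so their counts describe the sites and support nothing further. All 18 lists together hold 4126 genes, of which 83 (2.01%) had a site. The olfactory and vomeronasal receptors, with 1440 genes, had a single one, Olfr1425.

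Pluripotency and germ line genes had a site at 3 of 32. By the mean score of the 4 samples, the sites of Dppa3 (58.7) and Klf5 (54.9) lay above the median of 26.1 over all 271 sites, and that of Dppa4 (13.5) lay below it. Dppa3, a maternal and germ cell factor also called Stella, had one 1.82 kb upstream (55.3, 82.5, 61.2 and 35.9 in replicates 1 to 4) with an exact motif. Klf5, a Krüppel-like factor of naive ESCs, had one in intron 2, 4.55 kb downstream (66.2, 70.5, 40.8 and 42.2), in which clone B1 lay above clone B6 by the deposited scores. Dppa4, an ESC chromatin protein, had a weaker one 728 bp upstream (16.0, 15.5, 10.3 and 12.2) with 2 mismatches. The nearest shared sites to Pou5f1, Sox2 and Nanog, the core ESC factors, were 359.6, 527 and 82.9 kb from a TSS. In the Nodal, TGF-beta and BMP list (2 of 38), Smurf1, a ubiquitin ligase that acts on Smad proteins, had a strong site 274 bp upstream (120.0, 129, 103 and 155). Nodal, the ligand itself, had a weak one in intron 1 (16.3, 28.0, 10.03 and 11.6), with a single mismatch in its motif.

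Cell cycle genes had a site at 3 of 44, and they were the mitotic kinase Cdk1, its partner Ccnb1 and the activating phosphatase Cdc25a. The Cdk1 site holds the TSS, has 2 mismatches and scored 13.4, 26.4, 24.1 and 13.5. Ccnb1 scored 53.7, 70.2, 48.7 and 51.9 at 2.69 kb upstream, and Cdc25a 48.6, 26.8, 17.8 and 4.48 at 4.40 kb upstream. At Ccnb1 and Cdc25a both B1 samples were above both B6 samples, as at 32.1% of the 271 sites and 30.3% of all 900 shared sites. Such a call depends on the scale of the scores. Of the DNA replication and repair list, Pold1, the catalytic subunit of DNA polymerase delta, had a site in an intron, 2.23 kb downstream of its TSS, that scored 18.2, 24.1, 15.4 and 26.4, and Top3b shared the site of Igll1. Swi5, a recombination gene that is in no list, shares a pair of sites with the neighbouring Golgi gene Golga2 on the other strand.

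RNA processing genes had a site at 9 of 134 and chromatin regulators at 9 of 120. Among the former were Smg5, a factor of nonsense-mediated decay, with a mean score of 14.5 ± 2.78, the splicing genes Srsf5, Prpf19 and Snrnp35, and Gar1, a part of box H/ACA ribonucleoproteins. Among the latter were Hat1 (94.9 ± 7.08), Arid3a, Hmga2, Setd1b, Wiz, Brd2 and Bahd1 beside Bahcc1 and Tnrc18, with a median score of 52.7. Homeobox and proneural genes had a site at 7 of 172: Hoxb1, Hoxc12, Barx1, Six4, Pax1, Atoh1 and Neurog3. Their median score was 31.6, and Hoxb1 (1.74 kb upstream) was the highest with 29.2, 55.2, 54.9 and 53.4, replicate 1 being the lowest.

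Genes often used as constant references had a site at 2 of 21, Hsp90ab1 and Ywhaz. Hsp90ab1, a cytosolic chaperone, scored 157, 163, 114 and 97.6 at 692 bp upstream. Its best match had 1 mismatch and, by the deposited scores, both B1 samples were above both B6 samples. Of the small CTD phosphatase list, Ctdsp1 and Ctdsp2 were 2 of 6. The nearest shared sites to their relatives Ctdspl and Ssu72 were 396 and 108 kb away. Members of other lists with a site include Nras, a Ras GTPase, over its TSS (24.5, 32.9, 22.7 and 24.0), the ubiquitin-specific protease Usp9x, and the Golgi protein Gcc1.

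A pair of promoter-proximal sites was found at 11 genes: Ctdsp1, Ctdsp2, Tnrc18, Six4, Snrnp35, Rpe, Tmco6, Cldn4, Swi5, Golga2 and Gm13242. At Six4, a homeobox gene, both were in intron 1, at 1.65 and 1.10 kb, with scores of 38.2, 22.2, 57.1 and 35.2 for the first and 16.5, 25.9, 15.4 and 12.9 for the second. At Snrnp35, which encodes a protein of the minor spliceosome, both held a TSS (25.2, 37.0, 33.4 and 10.9, and 22.9, 34.7, 17.7 and 4.71), and replicate 4 was the lowest at both. At Tmco6 the upstream site averaged 101 ± 27.4 and the intronic one 47.8 ± 30.1 (SD, n = 4).

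The TSS and an exact motif were inside the same site at 21 genes. These ran from Fzd1, Fzd2, 1700028I16Rik, Flywch1, Scg5, Ctdsp2, Ctdsp1 and Rdx, which encodes radixin, a linker of membrane and actin (129 ± 15.8), through Bin2, Jak3, Ncln, Srsf5, Arhgap32, Hax1, Swi5, Sdc4, Pim2, Tmc6, Hyi and Stam2 to 4930402H24Rik (11.2 ± 4.78). Jak3, a cytokine receptor kinase, had the closest replicates of these, at 73.0, 75.8, 74.0 and 76.6.

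The clones were not tested site by site, since an exact permutation test of 2 samples against 2 cannot give a p below 0.333. Both B1 samples were above both B6 samples at 87 of the 271 sites (32.1%) and both B6 above both B1 at 39 (14.4%), against 30.3% and 12.8% over all 900 shared sites, so the promoter-proximal sites were near the background. By the percentile of a peak within its list, the counts were 83 (30.6%) and 32 (11.8%), close to those by score. Over all 900 shared sites these shares were 31.4% and 10%. With each score divided by the median of shared sites in its list, B1 was above at 52 (19.2%) and B6 at 75 (27.7%), against 16.4% and 25.4% of the 900 shared sites, so which clone was more often above depends on the scale. The largest ratios in favour of B1 were at Slc4a9, an anion exchanger (56.2, 67.6, 16.3 and 11.7), Cdc25a, Mdm2, the ligase of p53, Cul1, a cullin, and Ppfia3. In favour of B6 they were at Olfr1425, Agtpbp1 (11.8, 24.1, 40.3 and 32.3), Pax1, Pde4d and Ankrd45.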

How the data were processed

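Anti-GFP ChIP-seq peaks of Prdm4-EGFP in CCE ESCs were analysed in 4 samples, treated as replicates of 1 condition; the 4 IgG controls entered only through the peak calling. Per the methods, the authors aligned the reads with Stampy (mm9) and ran MACS2 against IgG with default settings. The deposited score of each peak, for which no normalization between samples is given in the sources used here, was used as it is. The members and lists were chosen with earlier results of these data known. Sites were merged from peaks of any score, with the higher peak of a sample kept at Olfr1425, the site with 2 peaks in replicates 2, 3 and 4. TSSs and positions came from the GENCODE annotation of mm9. Motifs were searched in mm9, and families built with BLAST+ 2.17.0 (E-value 1e-10), a setting used with its earlier outcome known. Score ratios are log2 ratios of medians within a sample, tested by exact sign flips over 4 samples. Named genes are the 20 highest and 5 lowest sites, genes with 2 sites, Bahcc1, Nodal and Klf5, list genes with a site, sites at the limit, sites with a TSS and an exact motif, the largest clone differences and sites without GAAAC; others were named after their values were seen. Some genes that meet these rules are not reported here. Merging, distances and motif search were tested on simulated data, with 500 of 500 planted items recovered in each. Alternatives covered the score minimum, overlap, distance, TSS set, mismatches, scale, each replicate left out and, added later, sites outside families. Python 3.11.15, numpy, pandas, scipy, pysam and matplotlib were used.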

Additional observations from a re-analysis of the deposited data

Results flagged for a closer look

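The 4 scores of 139 named sites were compared for a sample far from the other 3, as the gap to its nearest neighbour over the range of the 4. At 7 of them this ratio passed Dixon's critical value for 4 samples, and 7.0 were expected by chance at 1 in 20. The high samples were replicate 1 at Stam2 (23.8 against 9.83 to 10.9, ratio 0.923), replicate 2 at Atp1b1 (45.7 against 31.3 to 33.6, ratio 0.843), replicate 3 at C77080 (18.95 against 9.78 to 10.95, ratio 0.872), and replicate 4 at 4930402H24Rik (18.3 against 8.23 to 9.47, ratio 0.877) and at Rnd3 (7.84 against 5.27 to 5.66, ratio 0.848). The low sample was replicate 1 at Hoxb1 (29.2 against 53.4 to 55.2, ratio 0.932) and at Ccl9 (45.2 against 61.0 to 64.0, ratio 0.837).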

How the results depend on the processing

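No paired analysis was possible because each anti-GFP list was already called against its IgG control, so that only the 4 anti-GFP samples have values, and the experiment numbers of the clones only name the experiments. With minimum scores of 20 and 50 the number of promoter-proximal sites was 118 and 52, and within 1 and 2 kb it was 138 and 176. At a minimum of 50, 71.2% of sites were upstream and 96.2% held the motif. The motif share was 79.7% within 1 kb, 38.0% for exact matches, 71.2% with up to 1 mismatch and 93.7% with up to 3. The log2 ratio of scores near and far from a TSS turned at a minimum of 50 (0.13) and outside families (0.10), and with a replicate left out it ran from -0.10 to 0.00784, above 0 only without replicate 4; the cause was not tested. The ratio by side turned within 1 kb (-0.20), and was 0.14 outside families, a setting chosen after seeing the data. With clone scores divided by the list median, B1 was above at 52 sites and B6 at 75 (16.4% and 25.4% of the 900 shared sites). Within 1 kb, 43 list genes had a site instead of 83, and 145 of all genes instead of 293. Counts of sites stayed between 277 and 303 with 1 replicate left out. The ratio by side over all sites was 0.62 at a minimum score of 10 and 0.45 by mean log10 score, and the near to far ratio was -0.31 within 1 kb. In all, 79 alternative values of the comparisons kept their direction, or stayed within 1.5 times the reported count or within the 95% exact interval of a share, while 13 moved and 4 turned. Among the ranks of named sites, ranking by the lowest score moved 27 of 139 beyond the spread between samples.

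Scores carry no depth, so a weak site at Nodal or Hoxc12 cannot be weighed by its reads. Tests over 4 samples cannot go below 0.125, a list holds called peaks only, and the 2 clones share a transgene and a parental line.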

Other observations

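Of all protein-coding genes, 1.32% had a site, and the lists not described above ran on both sides of that share. Solute carriers had a site at 3 of 369 genes (0.813%), namely Slc2a9, Slc4a9 and Slc7a6. Zinc finger genes had one at 9 of 437 (2.06%), with Zbtb8a (247.5 ± 50.9; SD, n = 4) and Zfp706 the strongest, both in the largest family of similar sequences. The ubiquitin pathway list had 7 of 360 (1.94%), led by Trim11, and Golgi and vesicle genes 7 of 160 (4.38%), led by Snx4. The ubiquitin count leaves out Smurf1, Mdm2 and Cul1, which had a site but are not in that list.

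The other Frizzled genes on the chromosomes studied had no promoter-proximal site. The nearest shared site was 95.3 kb from a TSS of Fzd10, 202 kb from Fzd6, 264 kb from Fzd3 and 304 kb from Fzd9. In replicate 1 a peak lay 5.34 kb from Fzd5, with none as close in replicates 2 to 4 (147 kb or more).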
